A study of Mus musculus with 24 samples.

Results

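The mouse ventral prostate was examined for 9 genes of mucosal defence and mucus-type secretion: Pigr, Fcgbp, Clca1, Agr2, Scgb2b27, Ltf, Lcn2, Wfdc2 and Muc1. Every probe set whose platform annotation gives 1 of these genes was taken, which gave 12 of the 22626 probe sets that were not controls. A probe set is a group of short probes read together for 1 transcript. The genes were picked because strain differences had been seen for several of them in these same arrays, so their strain levels are given here as a description, without a test. Total RNA came from the whole ventral lobe of wild type, untreated mice aged 8 weeks on a standard diet. The 24 arrays were 4 biological replicates of each of 6 inbred strains: BALB/c, C57BL/6, 129X1, AKR, FVB and SWR. The labels do not say whether a replicate was 1 mouse or a pool. The study set the strains side by side as parents in a search for modifiers of cancer.

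Epithelia that line ducts and glands guard their surface in several ways. The polymeric immunoglobulin receptor, made from Pigr, carries dimeric IgA and pentameric IgM from the tissue into the lumen. Goblet cells and other mucus-making cells release Fcgbp and Clca1 proteins into mucus, and fold their cargo in the endoplasmic reticulum with the help of Agr2, a protein disulfide isomerase. Lactoferrin and lipocalin 2, made from Ltf and Lcn2, withhold iron from microbes, Wfdc2 belongs to the whey acidic protein family of small secreted proteins, and Muc1 spans the apical membrane as a mucin. Secretoglobins such as the product of Scgb2b27 are small proteins of gland fluids whose function is less well settled.

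Values are intensities, the brightness of a probe set on a linear scale, after each array was brought to the same trimmed mean of 98.7. Means and differences are on a log2(intensity + 16) scale, on which a level of 4 is the floor, and each mean ± SD is over 4 arrays. Levels are compared between strains for 1 probe set at a time, never between probe sets. Each of the 24 arrays lay closest to another array of its own strain. All 9 luminal prostate markers tested, among them Spink1, Msmb, Pbsn and Hoxb13, were above the 40th percentile of the array on all 24 arrays, while of 7 seminal vesicle genes Svs5 was above it on 15 arrays, Svs3a on 6 and the other 5, Svs2, Svs4 and Svs6 among them, on none. Of 6 urothelium and urethra genes, Upk1a and Upk2 were above that percentile on all 24 arrays and Krt4 on 21. Krt20 and Upk3a were above it on 2 each and Krt13 on 0. Of 9 skeletal muscle genes, Acta1 and Tnnc2 were above it on all 24 arrays, Ckm on 23, Pvalb on 11 and Actn3 on 10. Myl1 was above it on 5, Tnnt3 on 4, and Myh4 and Mylpf on 3 each. The sum over these 9 genes was 587 to 2514 in 129X1, 736 to 1888 in SWR and 735 to 1055 in FVB. In C57BL/6 it was 347 to 1027, in AKR 617 to 697 and in BALB/c 292 to 535. Summed over 7 adipocyte markers, intensity reached 4573 in FVB and 4194 in BALB/c but no more than 1007 in the other strains. The sum over 9 smooth muscle markers was lowest in BALB/c, at 4611 to 4863, against 5487 to 12693 elsewhere. Summed over 11 general epithelial markers it was 11391 to 12587 in BALB/c and 8577 to 11153 in the others. The RNA is from whole tissue, so a lower level may mean fewer cells of a type or less RNA per cell, and these cannot be told apart. Whether the strains differ in sequence under the probes, which could also change a reading, was not tested.

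Of the 12 probe sets, 10 passed the filter on low values, and those 10 belong to 8 of the 9 genes. All 10 were called in limma's moderated F test among the strains, where 36.4% of all probe sets tested were called; the genes were chosen on this contrast, so nothing is read from that count. At the brightest probe set of each gene, 6 of 9 genes spanned at least 2-fold between the lowest and the highest strain mean (9.09% of all probe sets were called with such a range): Scgb2b27 23.2-fold, Fcgbp 16.1-fold, Pigr 8.03-fold, Clca1 4.74-fold, Agr2 3.94-fold and Wfdc2 3.07-fold. The lowest strain was close to background for Fcgbp (C57BL/6, 1 of 4 arrays above the 40th percentile) and Clca1 (FVB, 0 of 4), so the size of these 2 ranges depends on the pseudocount. Just outside that mark lay Lcn2 at 1.76-fold and Ltf at 1.71-fold. No 2 of the 6 wide genes had the same order of strains. BALB/c was highest for Pigr, Fcgbp and Agr2 and lowest for Wfdc2, SWR was highest for Clca1, FVB for Scgb2b27 and 129X1 for Wfdc2.

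**Figure D1:**
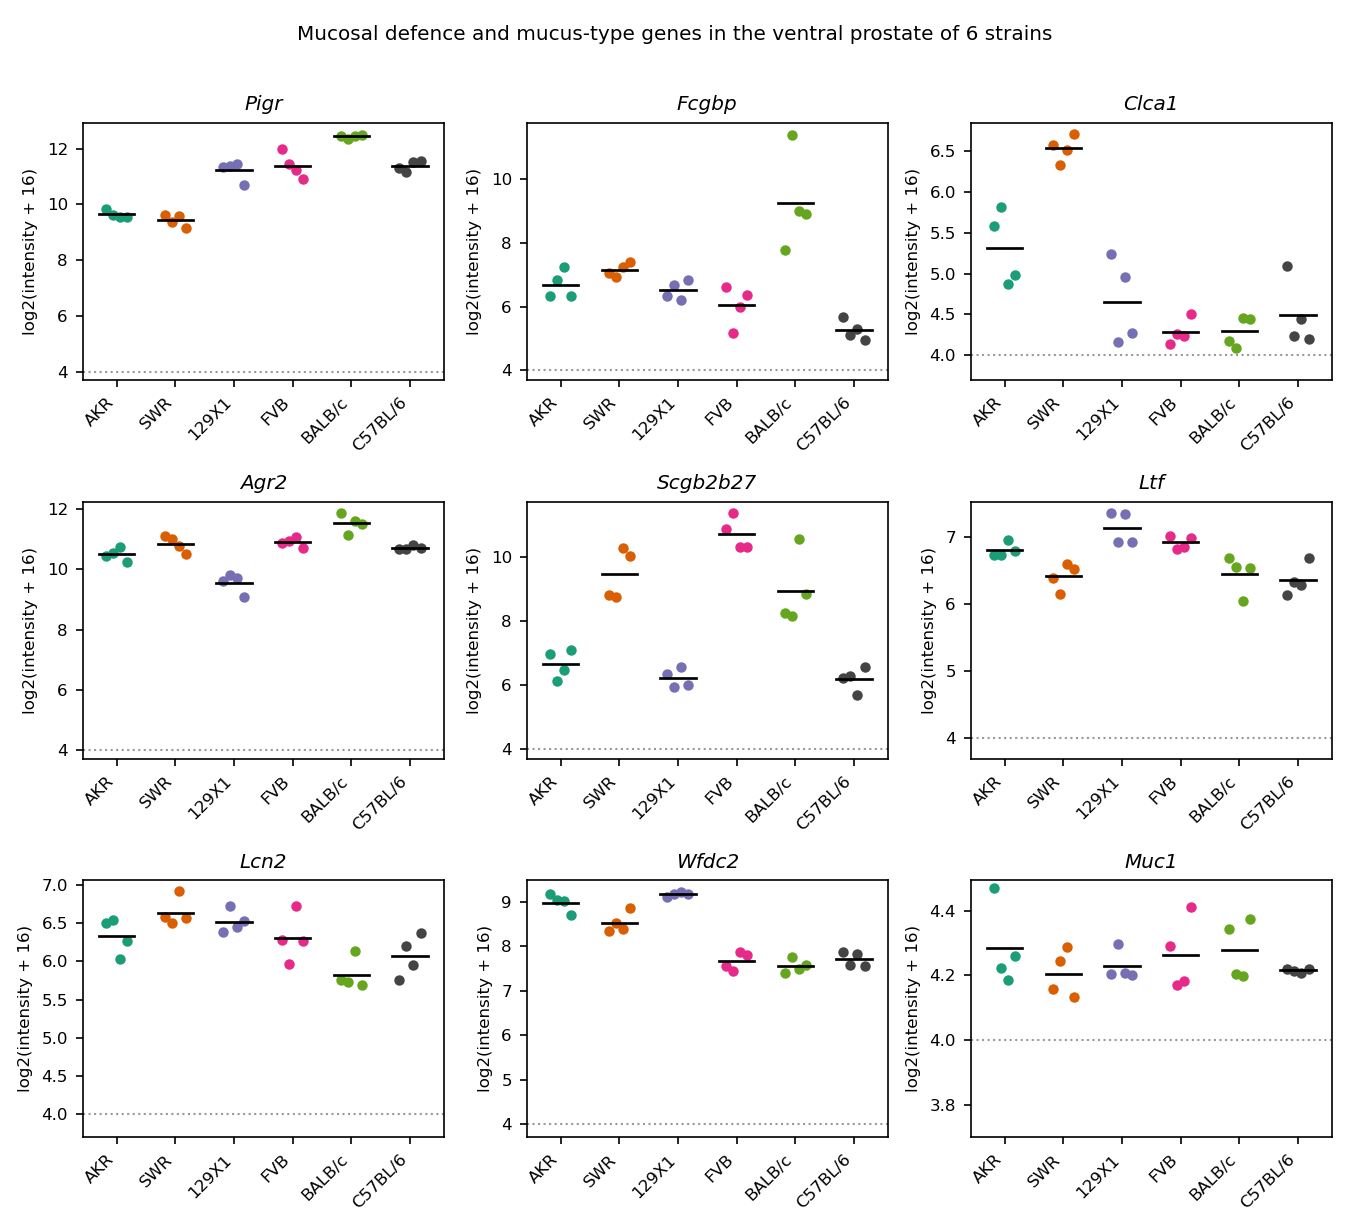
Level of the 9 genes at their brightest probe set, as log2(intensity + 16), in 6 strains. Each point is 1 array, each black bar the mean of 4 arrays, and the dotted line at 4 the floor of the scale; the vertical axes differ between panels. BALB/c stands highest for Pigr, Fcgbp and Agr2, SWR for Clca1 and FVB for Scgb2b27, and all Muc1 points lie just above the floor.

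The widest gene, Scgb2b27, lies at chr7:34011919-34013942 on the minus strand (mouse build GRCm38.p6, RefSeq). It encodes a subunit of an androgen-binding protein, a pair of secretoglobin chains known from mouse saliva and tears. Its neighbour Scgb1b27, at chr7:34021481-34022881, encodes a chain of the other kind and runs in the opposite direction, with 7538 bases between both starts. A close relative, Scgb2b26, lies in the same cluster at chr7:33942997-33944985. The 250 bases before the annotated start of each gene are shown because the neighbours moved together and because the relative is closely alike there; they come from RefSeq, 5′ to 3′ on the gene's own strand, from chr7:34013943-34014192 (minus strand), chr7:33944986-33945235 (minus strand) and chr7:34021231-34021480 (plus strand). Capitals mark the 9 stretches of at least 8 bases that align and are identical between Scgb2b27 and Scgb2b26.
Scgb2b27: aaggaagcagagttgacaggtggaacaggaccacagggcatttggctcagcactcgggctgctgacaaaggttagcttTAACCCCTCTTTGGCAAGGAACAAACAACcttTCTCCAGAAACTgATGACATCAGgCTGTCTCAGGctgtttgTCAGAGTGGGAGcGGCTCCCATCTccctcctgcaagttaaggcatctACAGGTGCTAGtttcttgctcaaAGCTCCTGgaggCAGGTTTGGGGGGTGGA
Scgb2b26: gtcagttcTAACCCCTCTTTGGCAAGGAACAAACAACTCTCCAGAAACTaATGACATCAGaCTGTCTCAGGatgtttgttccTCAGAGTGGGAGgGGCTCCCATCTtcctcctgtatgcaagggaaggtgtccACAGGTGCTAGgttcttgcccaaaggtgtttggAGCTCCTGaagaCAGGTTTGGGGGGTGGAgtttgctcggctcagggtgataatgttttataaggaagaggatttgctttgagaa
Scgb1b27: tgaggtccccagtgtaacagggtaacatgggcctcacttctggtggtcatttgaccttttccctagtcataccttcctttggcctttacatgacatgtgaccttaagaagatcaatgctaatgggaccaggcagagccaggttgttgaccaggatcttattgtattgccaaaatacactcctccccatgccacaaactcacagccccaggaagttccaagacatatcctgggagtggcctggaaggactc
Over 177 aligned bases, Scgb2b27 and Scgb2b26 were identical at 160, or 90.4%. Scgb2b26 has no probe set annotated to it alone here, so signal at the Scgb2b27 probe set from transcripts of related genes cannot be told apart from that of Scgb2b27 itself.

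Scgb2b27 (probe set 1425032_at) fell into 2 tiers of strains. In FVB the 4 arrays gave intensities of 1889.9, 2635, 1265 and 1264, in SWR 434, 419, 1236 and 1026, and in BALB/c 287, 270.0, 1507 and 445. In AKR they were 110.4, 53.5, 73.6 and 121, in 129X1 66.3, 44.8, 78.4 and 48.5, and in C57BL/6 58.2, 61.8, 35.9 and 79.4. Every array of FVB, SWR and BALB/c was thus above every array of AKR, 129X1 and C57BL/6, and the gap ran from 121 to 270.0. Means rose from 6.19 ± 0.37 in C57BL/6, 6.22 ± 0.30 in 129X1 and 6.67 ± 0.45 in AKR to 8.96 ± 1.12 in BALB/c, 9.47 ± 0.80 in SWR and 10.73 ± 0.51 in FVB. The 3 low strains overlapped one another, and so did BALB/c and SWR, while BALB/c replicate 3 lay inside the range of FVB. With a pseudocount of 64 in place of 16 the range was 14.3-fold. The upper tier was also the more variable: BALB/c replicate 3 was 3.31-fold above the next BALB/c array on the log2(intensity + 16) scale, the fifth largest such excess among 15775 probe sets on that array, behind 2 probe sets of the heat shock gene Hspa1b among others. SWR split into a pair of arrays at 419 and 434 and a pair at 1026 and 1236.

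The neighbour Scgb1b27 (probe set 1424063_at) showed the same tiers of strain means, with 7.67 ± 0.74 in SWR, 7.12 ± 0.50 in FVB and 6.57 ± 0.40 in BALB/c against 5.90 ± 0.40 in AKR, 5.82 ± 0.30 in C57BL/6 and 5.64 ± 0.33 in 129X1, although here SWR and not FVB was highest. In SWR its intensities were 124, 115, 371 and 225, so the arrays that were high for Scgb2b27 were high for it too. In BALB/c they were 62.9, 67.6, 128 and 70.9, and replicate 3 was again the highest. The arrays of both tiers overlapped here, since AKR replicate 4 read 71.8, above every BALB/c array but replicate 3. In FVB the intensities were 214, 116, 101 and 89.6, with replicate 1 highest, while replicate 2 was highest for Scgb2b27. Over the 24 arrays the log2 levels of both genes had a Pearson r of 0.86, the highest of Scgb2b27 with any of 9423 genes compared. With each strain's mean removed, r was 0.72 (Spearman's rho 0.73) and again the highest of the 9423; without the 2 arrays farthest from the median it was 0.63. This pair was picked after its values had been seen, so no p is given. Of the other secretoglobins on the array, Scgb3a2, a secretoglobin of the airways, was called in limma's F test with a range of 0.97 on the log2 scale, Scgb3a1 was tested and not called, and Scgb1a1 and Scgb1b2 did not pass the filter.

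**Figure D2:**
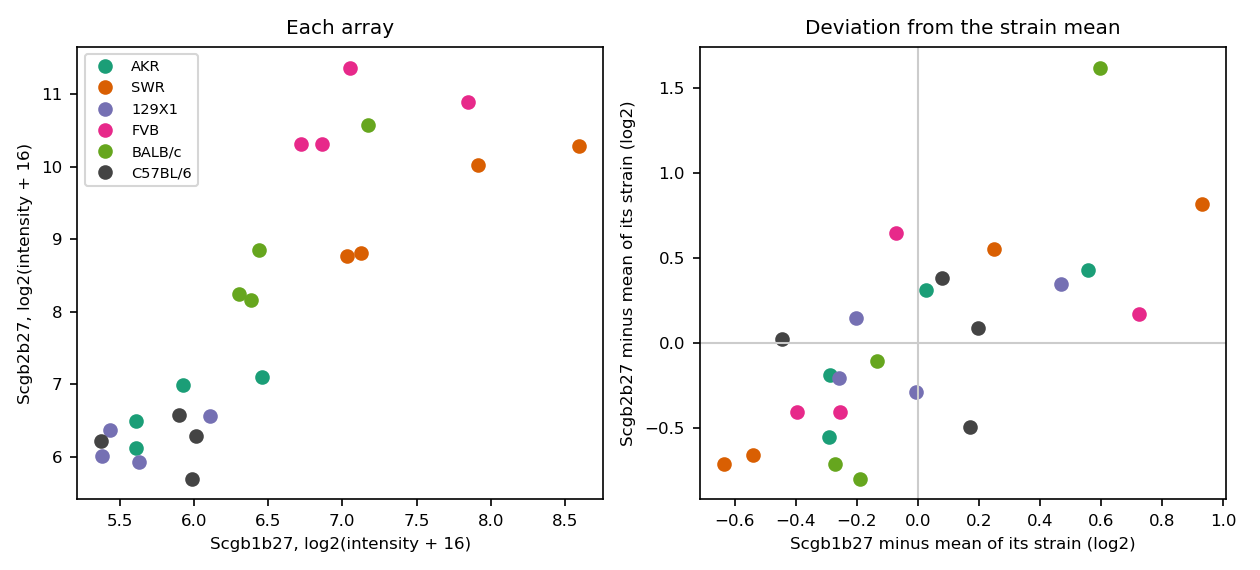
Scgb2b27 against its divergent neighbour Scgb1b27 on 24 arrays, coloured by strain. The left panel gives log2(intensity + 16), with FVB, SWR and BALB/c above the rest for Scgb2b27 and BALB/c overlapping AKR for Scgb1b27. The right panel gives each array's deviation from the mean of its strain on the log2 scale, where r was 0.72.

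Salivary and lacrimal glands are the best known sites of these secretoglobins, and of their defining markers Bpifa2, Amy1, Prol1 and Smr3a were above the 40th percentile on none of the 24 arrays and Dcpp1 on 1. The sixth marker, the water channel Aqp5, was above it on 21 arrays and was the only 1 tested. Its log2 level minus its mean over the 24 arrays was 0.67 to 0.86 in FVB and 0.09 to 0.51 in SWR. In BALB/c it was -0.41 to 0.21, in AKR -0.75 to -0.02, in 129X1 -0.87 to -0.22 and in C57BL/6 -0.26 to 0.01. The part of Aqp5-bearing cells in the Scgb2b27 level was not tested.

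Pigr, the receptor that exports polymeric antibodies, lies at chr1:130826684-130852249 and was measured by 2 probe sets that gave nearly one picture. At the brighter (1455490_at), intensities were 899.9, 773, 739 and 729.5 in AKR and 773, 644, 742 and 558 in SWR. They were 2564, 2656, 2804 and 1652 in 129X1, 4004, 2803, 2369.6 and 1906 in FVB and 2484, 2246, 2947 and 2954 in C57BL/6. In BALB/c they were 5606, 5115, 5647 and 5758. The strains therefore stood on 3 levels without overlap: AKR and SWR low, 129X1, FVB and C57BL/6 in the middle, and BALB/c on top. The means were 9.43 ± 0.21 in SWR, 9.64 ± 0.14 in AKR, 11.22 ± 0.35 in 129X1, 11.38 ± 0.19 in C57BL/6, 11.39 ± 0.45 in FVB and 12.44 ± 0.08 in BALB/c. Neighbours within a level overlapped. BALB/c was 3.54-fold above the mean of the other 5 strains (log2 difference 1.82, SE 0.14), and SWR was 3.44-fold below it.

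The second Pigr probe set (1450060_at) spanned 6.61-fold. Its intensities were 708, 574, 560.5 and 563 in AKR and 625, 441, 619 and 447 in SWR, against 3760.1, 3777, 4207 and 2700.2 in BALB/c. In 129X1 they were 2139, 2377, 2513 and 1703, in FVB 2818, 2366, 2077 and 1665 and in C57BL/6 1946, 2251, 2107 and 1967. AKR and SWR were again below every other array, but here BALB/c replicate 4 fell inside the range of FVB, so the top level was not separate. The general epithelial sum was highest in the same strain as Pigr, BALB/c. The general epithelial score, the mean log2 deviation of the same markers, separated the strains less. It was 0.03 to 0.23 in BALB/c, -0.04 to 0.09 in 129X1 and -0.03 to 0.09 in C57BL/6. In AKR it was 0.02 to 0.04, in SWR -0.16 to -0.02 and in FVB -0.25 to 0.03. When this score was added to the fit the range of Pigr at the brighter probe set was 6.23-fold. The sum over 4 dorsolateral and anterior prostate markers was also highest in BALB/c, at 6779 to 9219 against 1235 to 6991 elsewhere. That sum is mostly Pbsn, which is a luminal marker too. Its median intensity was 3234, against 400 for Crabp1, 25.1 for Gp2 and 2.77 for Gsdma. Gp2 was above the 40th percentile on 6 arrays and Gsdma on 1. The part of another lobe in the result was not tested.

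**Figure D3:**
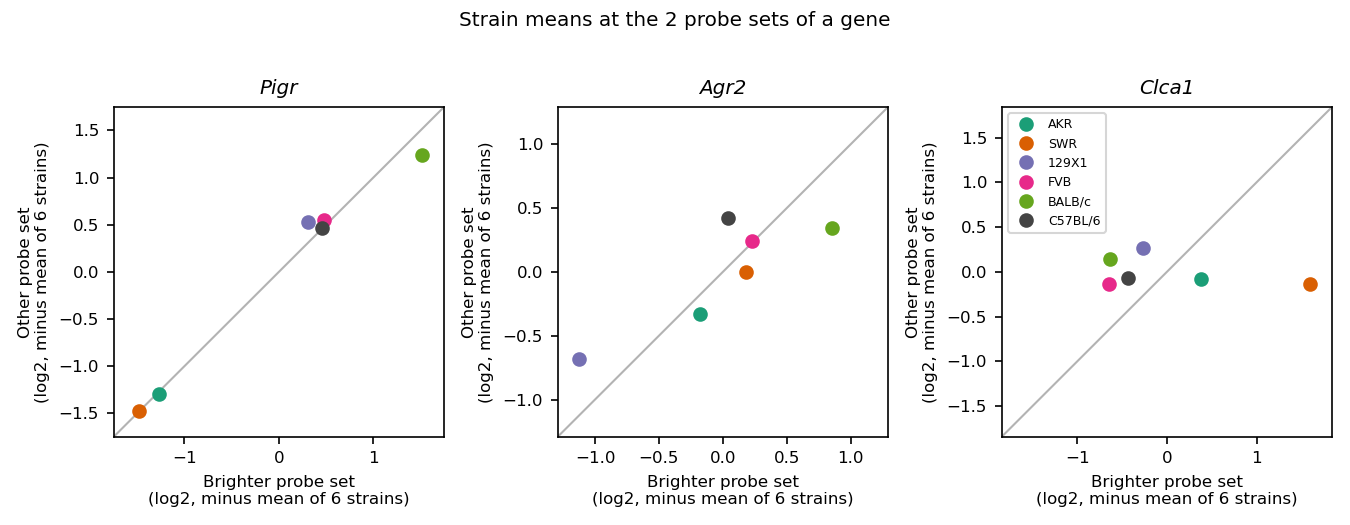
Strain means at both probe sets of Pigr, Agr2 and Clca1, each as log2 minus the mean of the 6 strains at that probe set; a point is a strain and the grey line marks equal deviations. The Pigr points follow the line, the Agr2 points follow it loosely, and the Clca1 points do not. The second Clca1 probe set was below the filter on all arrays, and the cause of the difference was not tested.

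Of the antibody chains that Pigr carries, Ighm was called, Igha was not, and Jchain is given without a test. Jchain, which joins IgA and IgM monomers, was highest in C57BL/6 at 5.74 ± 0.43 and next in BALB/c at 5.41 ± 0.48. It was lowest in AKR at 4.62 ± 0.36, a 2.17-fold range. Ighm, the heavy chain of IgM, was likewise highest in C57BL/6 at 7.82 ± 0.44 and lowest in FVB at 6.36 ± 0.17 (2.76-fold; limma's F test, adjusted p = 0.015). None of the 4 other Ighm probe sets was called, the adjusted p was 0.57 for the mean of all of them, and it was 0.09 without the 6 arrays numbered 4. Jchain was above the 40th percentile on 4 of 24 arrays, the fewest the filter allows, and so passed only through the arrays where it was high. It still passed in 20 of the 24 fits with 1 array left out. Its range moved to 3.40-fold with a pseudocount of 4 and to 1.40-fold with 64. Igha, the heavy chain of IgA, had its lowest mean in SWR (5.58 ± 0.45), as Pigr did, and its highest in 129X1 (6.47 ± 0.36). BALB/c was at 6.44 ± 0.47, AKR at 6.22 ± 0.33, FVB at 6.06 ± 0.30 and C57BL/6 at 5.84 ± 0.54. AKR, which was low for Pigr, thus had a higher Igha mean than FVB and C57BL/6. The 1.84-fold range of Igha did not pass limma's F test (adjusted p = 0.058). Sdc1, the plasma cell surface proteoglycan that epithelia also carry, was lower in C57BL/6 (1.54-fold below the other 5 strains, limma, adjusted p = 0.00044). It was also lower in BALB/c (1.44-fold, limma, adjusted p = 0.0016). Igha and Sdc1 were picked after their values had been seen, which limits what their p-values mean. Within the antibody transport and iron list of 55 genes, 34 were measured and 13, Jchain among them, were called (38.2%), beside 35% of all genes at their brightest probe set. The median range was 0.59 on the log2 scale, against 0.48 over all genes.

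Agr2, the folding enzyme of mucus-type cargo, lies at chr12:35992925-36004081. At its brighter probe set (1419268_at) the lowest strain was 129X1, with intensities of 762, 891, 822 and 530.2, and the highest was BALB/c, with 3718, 2278, 3121 and 2877. Between them, AKR gave 1392, 1491, 1713 and 1188, SWR 2219.7, 2034, 1762 and 1442, FVB 1865, 1969, 2169.6 and 1654 and C57BL/6 1628, 1611, 1776 and 1684. All 129X1 arrays were below, and all BALB/c arrays above, those of the other strains, the latter by a narrow margin, since the lowest BALB/c array was at 2278 and the highest SWR array at 2219.7. The middle strains overlapped from 10.50 ± 0.22 in AKR through 10.72 ± 0.06 in C57BL/6 and 10.86 ± 0.27 in SWR to 10.91 ± 0.16 in FVB. The means of the outer strains were 9.56 ± 0.32 in 129X1 and 11.54 ± 0.29 in BALB/c. The dimmer probe set (1455802_x_at), of a type whose probes can also match other transcripts, spanned 2.15-fold with C57BL/6 highest at 6.67 ± 0.27 and 129X1 lowest at 5.56 ± 0.46, and all its neighbours overlapped. Both probe sets thus placed 129X1 lowest and AKR next to it, and they differed over the top.

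Fcgbp, which encodes a large mucus protein with von Willebrand type domains, lies at chr7:28071236-28120864 (probe set 1426872_at). In BALB/c the 4 arrays read 205, 2701, 498 and 463. In SWR they read 118, 107, 135 and 154, in AKR 65.1, 99.7, 138 and 64.6, and in 129X1 65.3, 86.8, 58.7 and 98.3. In FVB they read 83.3, 20.0, 48.3 and 67.2, and in C57BL/6 35.6, 18.5, 23.7 and 14.8. Every BALB/c array was above every array of the other strains, and the C57BL/6 arrays were below all of SWR, AKR and 129X1. The means ran from 5.26 ± 0.32 in C57BL/6 through 6.05 ± 0.64 in FVB, 6.52 ± 0.29 in 129X1, 6.70 ± 0.45 in AKR and 7.16 ± 0.20 in SWR to 9.28 ± 1.52 in BALB/c, and each of the first 5 overlapped its neighbour.

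One array carried much of the size of the Fcgbp difference. BALB/c replicate 2 was 5.29-fold above the next BALB/c array on the log2(intensity + 16) scale, the largest such excess of all 15775 probe sets on that array. Without it the range was 9.86-fold in place of 16.1-fold; it was 7.89-fold with a pseudocount of 64 and 39.4-fold in a fit that included the adipocyte score. On the same array Best2, a bicarbonate channel of colonic goblet cells, ranked sixth of all probe sets by this excess, at 2.74-fold, with an intensity of 64.2 against 8.29, 8.26 and 13.2 in the other BALB/c arrays. The summed adipocyte markers of that array were the lowest of BALB/c, at 676 against 1621 to 4194. Its general epithelial sum, 11824, lay within the range of the other BALB/c arrays, and its sum over 6 plasma and B cell markers was the highest, at 614 against 232 to 549.5; the part of these cells in the result was not tested. Over the 24 arrays the gene most like Fcgbp was Scin, an actin-severing protein, at r = 0.84, and it was also the most like with strain means removed (r = 0.82). BALB/c replicate 2 enters both values.

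Clca1, which encodes a secreted protease of mucus, lies at chr3:145004537-145032776 (probe set 1416306_at) and was near the floor in most strains. In SWR the intensities were 78.8, 64.5, 75.2 and 88.6, and in AKR 31.9, 40.1, 13.2 and 15.7. In 129X1 they were 21.7, 1.88, 15.1 and 3.33, and in C57BL/6 18, 2.89, 5.74 and 2.32. In FVB they were 1.56, 3.12, 2.91 and 6.65, and in BALB/c 2.14, 1.09, 5.92 and 5.83. All SWR arrays were above all others, and the remaining strains overlapped in a chain, from 4.28 ± 0.16 in FVB to 5.31 ± 0.46 in AKR, with SWR at 6.53 ± 0.16. The probe set was above the 40th percentile on 5 arrays, the 4 of SWR and 1 of AKR, and so passed the filter through the strain in which it was high. Its range of 4.74-fold moved to 10.9-fold with a pseudocount of 4 and to 2.08-fold with 64. The second probe set (1459889_at) was below the filter on all 24 arrays, between 0.335 and 22.3. SWR (4.42 ± 0.24) and FVB (4.42 ± 0.36) had the lowest means there, and every neighbour in the order of strains overlapped.

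Wfdc2, a small secreted protein with whey acidic protein domains, lies at chr2:164562715-164568510 (probe set 1424351_at) and showed 2 clear tiers. Intensities were 538, 568, 584 and 561 in 129X1, 565, 512, 501 and 405 in AKR and 311, 350.5, 321 and 448 in SWR. They were 220.5, 177, 212 and 173 in C57BL/6, 174, 159.6, 218 and 209 in FVB and 153, 201, 165 and 175 in BALB/c. The lowest array of the upper tier was at 311 and the highest of the lower tier at 220.5. The means were 9.18 ± 0.05, 8.99 ± 0.20 and 8.53 ± 0.23 in the upper tier and 7.72 ± 0.16, 7.68 ± 0.20 and 7.56 ± 0.15 in the lower, in the order just given. These were tiers unlike those of Scgb2b27, since SWR was high for both genes while FVB and BALB/c were high for Scgb2b27 only. The sum over 5 basal epithelial markers was 786 to 924 in 129X1, 606 to 805 in SWR and 379.6 to 592 in AKR, against 421 to 495 in FVB, 262 to 299 in C57BL/6 and 251 to 292 in BALB/c. The part of basal cells in the Wfdc2 level was not tested.

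The iron-binding proteins differed less. Ltf, encoding lactoferrin (chr9:111019292-111042766, probe set 1450009_at), read 147, 105, 146 and 105 in 129X1, 113, 97.1, 98.9 and 110.1 in FVB and 89.4, 90.2, 108 and 94.8 in AKR. It read 87, 77.3, 49.8 and 76.5 in BALB/c, 67.1, 54.9, 80.4 and 75.8 in SWR and 54.3, 63.8, 61.7 and 86.8 in C57BL/6. All 12 arrays of the first 3 strains were above all 12 of the others, but only just, with 89.4 the lowest above and 87.0 the highest below. The outer means were 7.13 ± 0.25 in 129X1 and 6.35 ± 0.23 in C57BL/6. Lcn2, encoding the siderophore-binding lipocalin 2 (chr2:32384637-32387739, probe set 1427747_a_at), read 79.4, 74.6, 105 and 78.7 in SWR and 38, 36.9, 54.2 and 35.8 in BALB/c, the strains with the highest and lowest mean (6.64 ± 0.19 and 5.83 ± 0.21). The other strains lay between 38.0 and 89.8, and every neighbour in the order overlapped. Both proteins are also stored in neutrophil granules. Of 8 neutrophil markers on the array, Mpo and Ngp were above the 40th percentile on all 24 arrays, Csf3r on 12, Elane and Cxcr2 on 5 each, and S100a8, S100a9 and Camp on none. The 8 summed to 170.04 to 233 in SWR and 186 to 329.6 in the other strains, and the part of neutrophils in the Ltf and Lcn2 levels was not tested.

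Muc1, the transmembrane mucin (chr3:89229056-89233381, probe set 1449199_at), was between 1.55 and 6.17 on all arrays and above the 40th percentile on none, so it was not tested. In these arrays its intensity was 6.17, 2.66, 2.18 and 3.14 in AKR, and 2.63, 2.56, 2.47 and 2.65 in C57BL/6. At this signal over background a strain difference was not detectable.

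The RefSeq promoter windows, 250 bases before to 50 after the start, were available for 8 of the 9 genes, all but Clca1. They were searched on both strands for 8 motifs: a stricter and a looser NF-kB motif (each match of the first is one of the second), an interferon-stimulated element, the androgen and the estrogen response element, TGTTTAC (forkhead type), TTGCNNCAA (C/EBP type) and TATAAA. None of the first 7 had a match in any of the 8 windows. Over all 32817 windows they matched in 0.411%, 1.63%, 3.43%, 0.00914%, 0.0701%, 3.65% and 2.08%, in that order. TATAAA was found for Muc1, 31 bases before the start, and for Scgb2b27, 26 bases after it on the opposite strand, and 13.6% of all windows hold it. In the sequence of the relative Scgb2b26 it lay 29 bases before the start, also on the opposite strand. In the window of the neighbour Scgb1b27 it lay 42 bases after the start, on the gene's own strand. These are letter matches in these windows only.

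Whether the genes varied together from array to array was asked within strains, since the strain means had been used to choose them. After each strain's mean was removed, the 36 pairs among the 9 genes had r between -0.48 and 0.51 over 24 arrays. In permutation tests within strains, two-sided with 100000 resamples, 0 of 36 pairs passed after Benjamini-Hochberg adjustment, by r or by rho, and 2 had an unadjusted p under 0.05 by each. Those by r were Pigr with Agr2 (r = 0.51, rho = 0.46, permutation p = 0.02 and 0.038, adjusted 0.36 and 0.68) and Fcgbp with Wfdc2 (r = 0.50, rho = 0.50, permutation p = 0.012 and 0.029, adjusted 0.36 and 0.68). Without the 2 arrays farthest from the median of the first gene, r was 0.49 and 0.41. With adipocyte score regressed out too, Pigr with Agr2 reached r = 0.72 and Pigr with Fcgbp r = -0.70, both with an adjusted permutation p of 0.027. Pigr and Agr2 shared BALB/c as their highest strain but not their lowest, which was SWR for Pigr and 129X1 for Agr2.

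**Figure D4:**
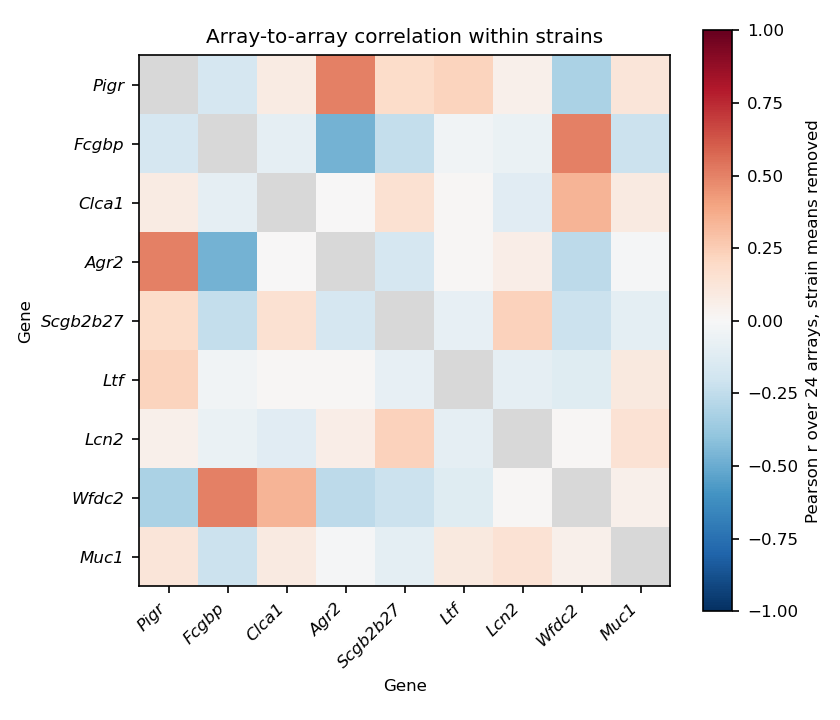
Pearson r between the 9 genes over 24 arrays after each strain's mean was removed, red for positive and blue for negative, with the diagonal in grey. The strongest cells are Pigr with Agr2 and Fcgbp with Wfdc2 (0.51 and 0.50) and Fcgbp with Agr2 (-0.48), and 0 of 36 pairs passed adjustment.

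By the correlation of log2 levels over all 24 arrays, among 9423 genes, the gene most like Pigr was Prr13 (r = 0.88), the one most like Agr2 was Erp44 (r = 0.90), and the one most like Wfdc2 was Wls (r = 0.87). Erp44 encodes a thioredoxin-like protein of the early secretory pathway, and Wls the carrier of secreted Wnt proteins. For Ltf it was Smarcd3 (r = 0.82), for Lcn2 Zfp185 (r = 0.77) and for Clca1 Cdipt (r = 0.80). Over the 6 strain means alone the closest genes were Ddr2 for Pigr, Tmem42 for Agr2, Hic2 for Fcgbp, Kcnc1 for Scgb2b27, Polg for Wfdc2, Rasl12 for Ltf, Tmem109 for Lcn2 and Hnrnpr for Clca1, all with r above 0.97. These rest on 6 points each and are given as a description.

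Among 66 genes of the secretory and goblet-type programme, 35 were measured and 18 were called in limma's F test (51.4%, beside 35% of all genes). Their median range was 0.64 on the log2 scale, against 0.48 over all genes. The widest was Bhlha15, a transcription factor of secretory cells also called Mist1, with 11.14 ± 0.27 in SWR and 9.14 ± 0.22 in 129X1 (3.99-fold, adjusted p = 1.2e-08). Both listed membrane-bound factors of the Creb3 family, which switch on secretory pathway genes, went different ways. Creb3l4 was high in SWR (7.20 ± 0.24), C57BL/6 (7.07 ± 0.28) and BALB/c (7.06 ± 0.28) and lowest in FVB (5.35 ± 0.37), a 3.60-fold range (adjusted p = 1.7e-08; 2.19-fold with a pseudocount of 64). Creb3l1 was highest in FVB (7.81 ± 0.12) and lowest in 129X1 (6.19 ± 0.16), a 3.07-fold range (adjusted p = 9e-07). Spdef, the goblet cell regulator, was picked after its values had been seen, which limits what its p-values mean. On the log2 scale it differed from the other 5 strains by 0.41 in BALB/c (limma, adjusted p = 0.012). The difference was 0.38 in C57BL/6 (limma, adjusted p = 0.032) and -0.57 in FVB (limma, adjusted p = 0.0023).

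Tff3, a trefoil peptide secreted with mucus, was highest in AKR (7.31 ± 0.11), next in BALB/c (7.02 ± 0.17), and lowest in 129X1 (6.19 ± 0.32), a 2.18-fold range (limma's F test, adjusted p = 9.6e-06). AKR was also highest, and C57BL/6 lowest, for Tmprss2, a membrane protease of prostate epithelium (2.92-fold, adjusted p = 9.5e-06), and for the epithelial factor Klf5 (2.88-fold, adjusted p = 0.00018). The potassium channel Kcnn4 was highest in AKR and lowest in BALB/c (2.29-fold, adjusted p = 0.00055). Fut2, which makes the terminal fucose of mucins, was between 4.47 ± 0.36 in 129X1 and 5.61 ± 0.74 in BALB/c (2.20-fold, adjusted p = 0.048), and this call was lost in most alternatives. In 129X1, the strain lowest for Agr2, 5 of the 35 genes were lower than in the other strains (Bhlha15, Creb3l1, Fut2, Muc13 and Tff3) and 2 were higher, where 5.27% of all probe sets were called lower and 6.38% higher. In BALB/c, the strain highest for Agr2, 5 were higher (Creb3l4, Scgb3a2, Slc12a2, Spdef and Tff3) and 2 lower, beside 8.3% and 10.6% of all probe sets. AKR had 5 higher and 3 lower (4.67% and 5.12% of all probe sets), SWR 3 and 2 (5.52% and 5.04%), FVB 2 and 2 (3.45% and 3.65%), and C57BL/6 3 and 4 (5.65% and 5.45%). These counts moved with the setting. The 7 calls in 129X1 became 4 without its replicate 1, 3 or 4 and 3 with smooth muscle score in the fit. The 7 in BALB/c became 2 with that score and 4 with the general epithelial score, and the 7 in C57BL/6 became 4 with smooth muscle score or without C57BL/6 replicate 3. The 5 in SWR became 2 without SWR replicate 2, and the 4 in FVB became 2 with either the smooth muscle or the general epithelial score.

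Among 83 antimicrobial and acute phase genes, 42 were measured and 19, Itln1 among them, were called (45.2%, beside 35% of all genes). Itln1 passed the filter only through the strains where it was high. The median range of the list was 0.65 on the log2 scale, against 0.48 over all genes. BALB/c had 13 strain calls, with 8 genes higher (Rnase1, Defb1, Cst3, Cxcl17, Defb2, Lyz1, Nfkbiz and Tlr5) and 5 lower (Cxcl15, Wfdc1, Pglyrp1, Cebpb and Lbp), and BALB/c also had the most calls over all probe sets, 8.3% higher and 10.6% lower. With smooth muscle score in the fit the list had 3 calls in BALB/c in place of 13. Lyz1 has a near-identical copy, Lyz2, and its call is uncertain for that reason. Rnase1, a secreted ribonuclease, was 10.56 ± 0.17 in BALB/c and lowest in C57BL/6 at 7.76 ± 0.37 (6.97-fold, adjusted p = 0.00075; 4.42-fold with adipocyte score in the fit). The epithelial defensin Defb1 was 12.32 ± 0.09 in BALB/c, 9.68 ± 0.44 in C57BL/6 and lowest in 129X1 at 9.54 ± 0.17 (6.91-fold, adjusted p = 3.5e-06; 4.49-fold with smooth muscle score in the fit). Its relative Defb2 ran the same way between its ends, from 5.12 ± 0.63 in 129X1 to 6.63 ± 0.43 in BALB/c (2.86-fold, adjusted p = 0.0015). Cst3, the protease inhibitor cystatin C, was highest in BALB/c (10.22 ± 0.28) and lowest in C57BL/6 (8.84 ± 0.28), a 2.61-fold range (adjusted p = 8e-06).

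Other antimicrobial genes went against BALB/c. Pglyrp1, which binds bacterial peptidoglycan, was highest in 129X1 (6.35 ± 0.49) and near the floor in BALB/c (4.64 ± 0.52) and C57BL/6 (4.18 ± 0.07), a 4.48-fold range (limma's F test, adjusted p = 1.4e-06). None of the 8 arrays of those 2 strains was above the 40th percentile, and the same held for Defb2 in 129X1, so these low ends are close to background. The chemokine Cxcl15 was highest in C57BL/6 (7.08 ± 0.41) and lowest in BALB/c, at intensities of 21.4, 40.8, 7.7 and 4.73, 4.23-fold (adjusted p = 3e-05). Wfdc1 was lowest in BALB/c at 5.07 ± 0.52 and highest in FVB at 6.46 ± 0.22 (2.63-fold, adjusted p = 0.0068), but its adjusted p was 0.23 with smooth muscle score in the fit, 0.073 with the general epithelial score and 0.064 without the arrays numbered 4. The order of Wfdc1 was not that of Wfdc2, which was low in both BALB/c and FVB. Itln1, a lectin of goblet and Paneth cells, was read at 35.8, 46.7, 63.7 and 59.5 in FVB and 2.41, 105, 136 and 55.7 in AKR, and at no more than 5.18 on any array of the other strains. It passed the filter only through FVB and AKR, where it was high, so no test is given, and its range of 3.93-fold (6.13-fold without AKR replicate 1) depends on the floor of the scale. In C57BL/6, 1 gene of this list was higher (Cxcl15) and 6 were lower (Cst3, Defb1, Lbp, Pglyrp1, Stat3 and Tlr5), where 5.65% of all probe sets were called higher and 5.45% lower. With a pseudocount of 64 the ranges of Pglyrp1, Cxcl15, Itln1, Defb2 and Wfdc1 were 1.97-fold, 2.26-fold, 1.94-fold, 1.76-fold and 1.66-fold, and with 4 those of Pglyrp1, Cxcl15 and Itln1 were 11.3-fold, 6.64-fold and 8.37-fold.

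**Figure D5:**
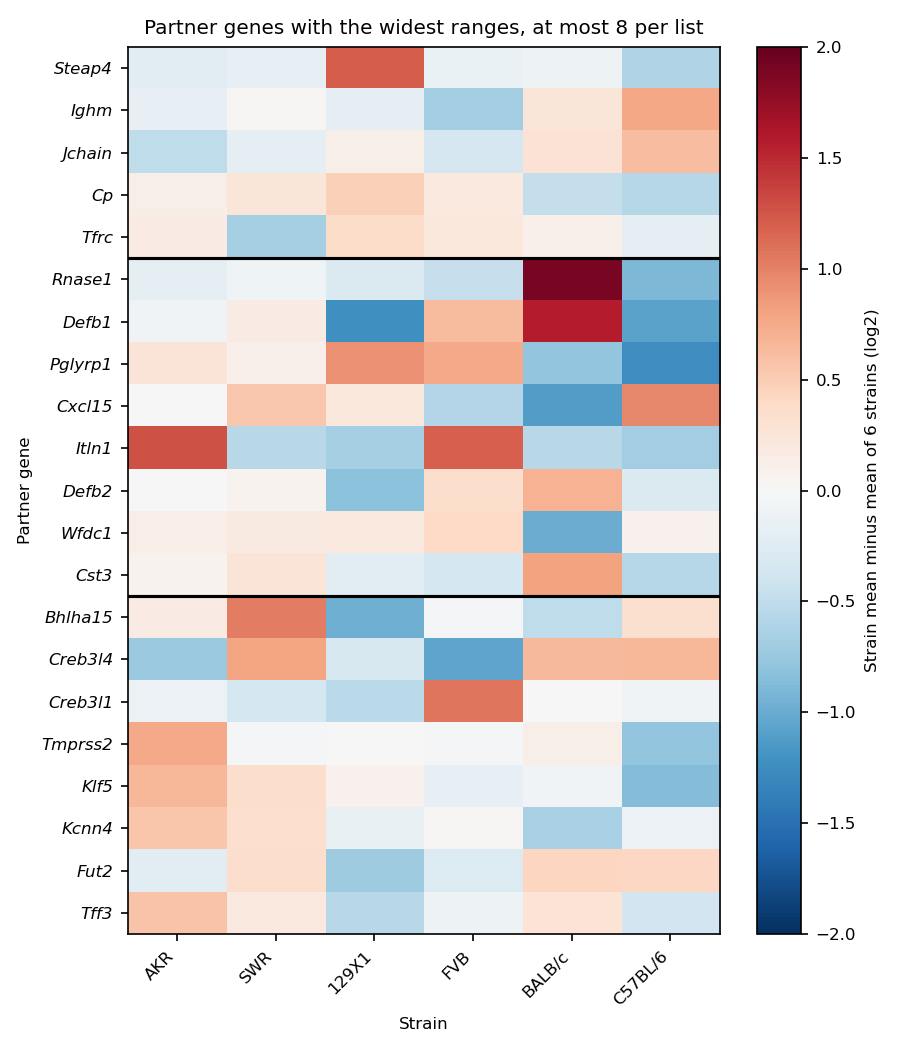
The 21 partner genes with the widest ranges, at most 8 per list, among those called with at least a 2-fold range, as the strain mean minus the mean of the 6 strains (log2, red above and blue below); black lines separate the antibody and iron, antimicrobial and secretory lists from top to bottom. BALB/c is red for Rnase1 and Defb1 and blue for Cxcl15 and Wfdc1, and SWR is red and 129X1 blue for Bhlha15.

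Iron handling, on which Ltf and Lcn2 act outside the cell, showed its widest difference in Steap4, a metalloreductase that reduces iron for uptake. Its intensities were 233, 239, 209.8 and 133 in 129X1, and its means 7.75 ± 0.36 in 129X1 and 5.93 ± 0.20 in C57BL/6 (3.51-fold; limma's F test, adjusted p = 7.7e-07). Cp, the ferroxidase ceruloplasmin, was also highest in 129X1 (8.69 ± 0.17) and lowest in C57BL/6 (7.65 ± 0.14), a 2.06-fold range (adjusted p = 6.3e-07), and 5 of its 6 other probe sets were called. Tfrc, the transferrin receptor, was highest in 129X1 (7.56 ± 0.22) and lowest in SWR (6.52 ± 0.18), a 2.05-fold range (adjusted p = 0.00053). Ltf, too, had its highest mean in 129X1, while Lcn2 had it in SWR. Of the 34 genes measured in this list, 3 were called higher in 129X1 (Cp, Steap4 and Tfrc) and 1 lower (Fcgr2b). Over all probe sets, 6.38% were called higher there and 5.27% lower. Those 4 calls became 2 without 129X1 replicate 1. Other iron genes peaked elsewhere: Slc40a1 in AKR, Fth1 in BALB/c and Slc11a2 in C57BL/6. In C57BL/6, 3 genes of the antibody and iron list were higher: Ighm, Slc11a2 and Jchain, which only just passed the filter. Another 5 were lower (B2m, Cp, Fth1, Sdc1 and Steap4), where 5.65% of all probe sets were called higher and 5.45% lower. These 8 calls became 5 without C57BL/6 replicate 2, without the 6 arrays numbered 4, and with adipocyte score in the fit.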

How the data were processed

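The arrays were Affymetrix MOE430A, 4 for each of 6 strains; groups follow the sample titles. The authors' deposited values were linear intensities from MAS5, per the submitters' processing notes (version not given in the sources used here), with every array at a mean of 143. Each array was rescaled to a common 2% trimmed mean and log2(intensity + 16) taken. After 64 controls were left out, 15775 of 22690 probe sets were above their array's 40th percentile on at least 4 arrays and were tested. limma 3.58.1 in R 4.3.3 fitted the 6 strains on 24 arrays (moderated F test, and every strain against the average of the remaining 5; Benjamini-Hochberg over all tested probe sets at 0.05). Genes came from the platform annotation, where a probe set had 1 symbol, and each was read at its brightest probe set; sequences and positions came from RefSeq tables of GRCm38.p6.

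The 9 genes and the partner lists were chosen with earlier results of these data known. All probe sets of the 9 genes are named, and of each partner list the called genes with at least a 2-fold range, at most 8 per list; genes behind strain counts and those most alike in pattern are named besides, and Sdc1, Igha, Spdef, Best2, Scgb1b27 and the other secretoglobins were chosen after their values were seen. Correlations were computed in Python 3.11.15 with numpy 2.4.6. The scripts were tested on simulated data. Same-numbered arrays of different strains did not vary together (mean residual r 0.0053, from -0.21 to 0.15 over 60 pairs; 3 of 24 arrays matched best to their own number), so the numbers were not taken as pairs. The labels give no batch. Nothing says how replicates were separated beyond the word biological, so p-values measure the spread between these samples. Their number, 4 per strain, limits the precision. The alternatives were other pseudocounts, scalings and filters, covariates for 3 tissue scores, the replicate block, and arrays left out.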

Additional observations from a re-analysis of the deposited data

Results flagged for a closer look

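Of 72 groups of 4 arrays, 1 for each of 12 probe sets in 6 strains, 5 had an array far from the other 3 by Dixon's criterion at the 95% level, and chance gives such a ratio in about 1 group in 20. Pigr at probe set 1455490_at in 129X1 had replicate 4 at 1652 against 2564 to 2804 (gap ratio 0.831). Pigr at 1450060_at in AKR had replicate 1 at 708 against 560.5 to 574 (0.899). Agr2 at 1455802_x_at in SWR had replicate 3 at 94.4 against 49.4 to 53.8 (0.875). Lcn2 in BALB/c had replicate 3 at 54.2 against 35.8 to 38.0 (0.862). Muc1 in 129X1 had replicate 2 at 3.66 against 2.41 to 2.49 (0.935), below the filter on low values. The high arrays of Fcgbp and Scgb2b27 in BALB/c did not pass this criterion.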

How the results depend on the processing

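The alternatives were 24 fits with 1 array left out and 10 to 12 other settings. The number of the 9 genes with at least a 2-fold range was 6 in each alternative that gave it. Of 306 strain ranges recomputed, 289 moved by less than the spread between replicates and 17 by more, none with a change of sign. The 10 probe sets called became 9 to 10 with 1 array left out and 8 once smooth muscle score was in the fit. The partner counts of 18, 19 and 13 became 16 to 20, 17 to 21 and 10 to 13 with 1 array left out, and 14 to 21, 14 to 22 and 10 to 14 otherwise. Of 747 tests of named partner genes, 32 lost the call, 27 of them Fut2, whose adjusted p ran from 0.0014 to 0.11. Fut2 alone changed sign, to -0.24 on the log2 scale with smooth muscle score in the fit (adjusted p = 0.08); the cause was not tested. The number of correlated pairs within strains, 0, became 2 with the adipocyte score removed and was 0 with each array left out; the cause was not tested. With the replicate number as a block, 5521 probe sets were called against 5739, and among the named genes the block ended only the call of Fut2 (adjusted p = 0.064). The covariate scores come from the same arrays as the results. Signal close to background limits what can be seen for Muc1, for Clca1 outside SWR and for Fcgbp in C57BL/6. Of 648 partner counts by strain, 58 moved by more than 1.5 times.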
